A study of Mus musculus with 4 samples.

Results

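The 46 protein-coding mouse genes whose symbols start with Nduf were measured among the 55385 genes of a bulk RNA sequencing table of mouse mammary carcinoma cells. They were taken by symbol from the GENCODE annotation, and comprise 7 core subunits of mitochondrial complex I, 29 accessory subunits, 8 assembly factors, and Ndufa4 with its paralog Ndufa4l2. The cells were of the 4TO7 line, isolated by enzymatic digestion from tumors in Balb/c mice. The 2 groups, of 2 libraries each, were cells of tumors that resisted the immune checkpoint antibody anti-PD-L1 (resistant) and cells of control tumors (control). The treatment label of all 4 samples reads untreated, whereas their treatment protocol names anti-PD-L1 in vivo, and the sources used here state neither the treatment of control tumors, nor the age of the mice, nor whether tumors were pooled. The series design calls the libraries of a group biological replicates, but no label ties a library to an animal, so the p-values measure the spread between libraries.

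Complex I, the NADH:ubiquinone oxidoreductase, is the entry point of electrons from NADH into the respiratory chain of the inner mitochondrial membrane. Its peripheral arm carries electrons from NADH over a flavin and a row of iron-sulfur clusters to ubiquinone, and its membrane arm pumps protons. The core subunits of the peripheral arm are nuclear genes, those of the membrane arm are encoded in mitochondrial DNA, and the accessory subunits, all nuclear, surround and stabilise the core. Assembly factors hold intermediates together or modify subunits and are not part of the finished enzyme.

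The libraries held between 45666470 and 49592054 counted reads. The epithelial keratin genes Krt8 and Krt18 had at least 12649 and 27813 normalized counts (reads divided by a size factor per library) in each library, while the basal keratin genes Krt5 and Krt14 had no read. Epcam, an epithelial adhesion gene, fell to 87.6 and 114 normalized counts in resistant libraries, against 341 and 246 in control libraries (limma adjusted p = 0.011). The 8 leukocyte markers summed to 7.13 and 7.51 normalized counts in resistant libraries and 6.72 and 11.1 in control libraries, and the pan-leukocyte gene Ptprc had at most 2.15. Of 5 erythrocyte markers 4 had no read. The 6 markers of pericytes and smooth muscle summed to 868 and 1096 normalized counts in resistant libraries, against 498 and 423 in control libraries, and the 5 endothelial markers to 167 and 228 in resistant libraries, against 76.9 and 41.4 in control libraries. Des and Pdgfrb rose in the first list, while Acta2, Rgs5 and Myh11 did not pass and Cspg4 was too low to test. Acta2 had 38.7 and 62.2 in resistant libraries, against 10.6 and 33.3 in control libraries, and Cspg4 8.15 and 8.58 against 3.84 and 6.05. Rgs5 had 116 and 112 in resistant libraries and 145 and 95.8 in control libraries, and Myh11 13.2 and 3.22 against 5.76 and 29.2. In the second list Vwf rose, while Pecam1 did not pass, at 13.2 and 12.9 in resistant libraries and 21.1 and 15.1 in control libraries. The defining endothelial genes Cdh5 and Kdr had no read in the resistant libraries. The 6 fibroblast markers summed to 7144 and 8499 in resistant libraries and 9297 and 6344 in control libraries, most of it Pdgfra, while the matrix proteoglycan gene Dcn fell to 163 and 143 in resistant libraries, against 763 and 483 in control libraries (limma adjusted p = 0.00343). The 8 skeletal muscle markers summed to 393 and 390 in resistant libraries and 449 and 338 in control libraries. Among them the troponin gene Tnnt3 rose to 138 and 132 in resistant libraries, against 46.1 and 37.3 in control libraries (limma adjusted p = 0.00872), and the myosin gene Myh1 did not pass, at 93.8 and 117 in resistant libraries and 306 and 164 in control libraries. The 5 adipocyte markers summed to 55.0 and 68.6 in resistant libraries and 44.2 and 13.1 in control libraries, mostly Fabp4, which did not pass. The part of these markers in the differences below was not tested.

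Across the Nduf genes the differences were small and mostly upward. A minimum mean of 10 normalized counts left 45 members and excluded Ndufa4l2. Of the 45, 3 rose in resistant cells in limma at a Benjamini-Hochberg adjusted p under 0.05, namely Ndufb9, Ndufv2 and Ndufa4. That is 6.67% of the members, against 5.32% of all 14238 genes tested and 4.85% of the genes with a mean of at least 100, which all 45 members had. Without Ndufa4, 2 of the 44 complex I subunits and assembly factors rose, or 4.55%. No member fell in limma, against 4.73% of all genes and 3.99% of those with a mean of at least 100, nor in a limma voom fit on whole reads. In either direction 10.1% of all genes passed. At an unadjusted p under 0.05, 10 members were higher, against 13.8% of all genes, and 26.4% of all genes passed in either direction. The log2 fold change (resistant minus control) was above 0 for 32 of the 45, or 71.1%, against 50.3% of all genes, with a median of 0.16 against 0.00. Both resistant libraries lay above both controls for 24 members, or 53.3%, against 28.4% of all genes, and below both for 7, or 15.6%, against 28.3% (56.7% of all genes did not overlap). In the 14 other members the groups overlapped. Summed over all 46 genes, reads were 0.210% and 0.193% of the library in resistant cells and 0.182% and 0.192% in control cells. Resistant replicate 2 and control replicate 2 were close, and the others lay outside them. In bulk samples, fewer cells of a type and less RNA per cell cannot be told apart.

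**Figure D1:**
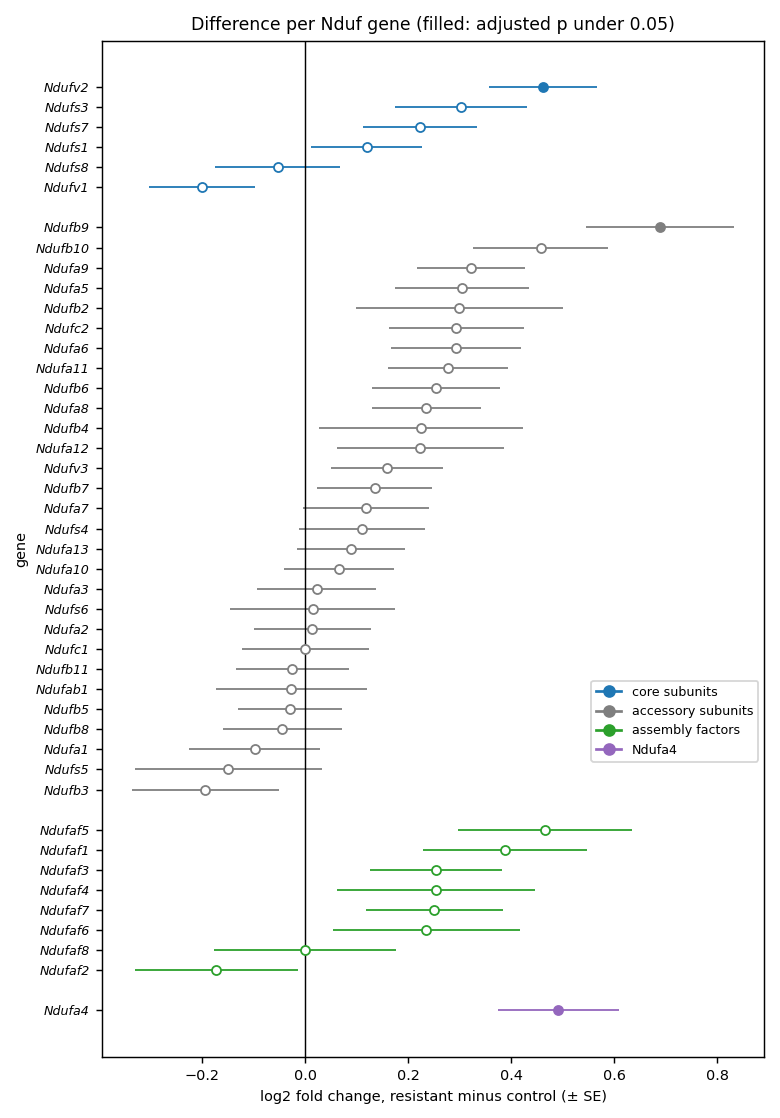
Log2 fold change (resistant minus control, ± SE from limma, 2 libraries per group) of 44 of the 45 tested Nduf genes, ordered by size within core subunits, accessory subunits, assembly factors and Ndufa4. Filled symbols mark Ndufb9, Ndufv2 and Ndufa4, the 3 genes past an adjusted p of 0.05, and values run between -0.20 (Ndufv1) and 0.69 (Ndufb9).

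Of the 7 core subunits 1 rose and none fell in limma, with a median log2 fold change of 0.12, which was 0.04 without control replicate 2. At an unadjusted p under 0.05, 2 were higher, against 13.8% of all genes. Ndufv2, an iron-sulfur flavoprotein subunit at the tip of the peripheral arm, where NADH is oxidised, rose. Ndufv2 (ENSMUSG00000024099.15, chromosome 17, 66078638 to 66101559, GRCm38) had 3830 and 3683 normalized counts in resistant libraries, against 2803 and 2653 in control libraries. The groups did not overlap, and the log2 fold change was 0.46 ± 0.10 (SE, limma adjusted p = 0.0348). Its partner Ndufv1, which binds the flavin and NADH beside it, had 3259 and 3160 normalized counts in resistant libraries and 3624 and 3751 in control libraries. Both resistant libraries lay below both controls, but Ndufv1 did not pass (-0.20 ± 0.10, limma adjusted p = 0.263). The ratio of Ndufv2 to Ndufv1 reads was thus 1.18 and 1.17 in resistant libraries, against 0.773 and 0.707 in control libraries. This ratio was chosen after the values were seen, and with 2 libraries against 2 no exact permutation test can reach 0.05.

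Ndufs3, a subunit of the quinone module, had 936 and 978 normalized counts in resistant libraries, against 789 and 762 in control libraries (0.30 ± 0.13, adjusted p = 0.186 in limma). Ndufs7, holder of the last iron-sulfur cluster before ubiquinone, had 2245 and 2333 in resistant libraries, against 1900 and 2026 in control libraries (0.22 ± 0.11). For Ndufs3 and Ndufs7 the resistant libraries were above both controls without passing the test.

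Ndufs1 and Ndufs8 differed less. Ndufs1, the large iron-sulfur subunit next to Ndufv1 and Ndufv2, had 4742 and 4686 normalized counts in resistant libraries and 4593 and 4101 in control libraries (0.12 ± 0.11). Ndufs8, a ferredoxin-like subunit of the quinone module, had 1387 and 1284 in resistant libraries and 1340 and 1431 in control libraries (-0.05 ± 0.12). The groups overlapped for Ndufs8, while for Ndufs1 both resistant libraries lay above both controls.

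**Figure D2:**
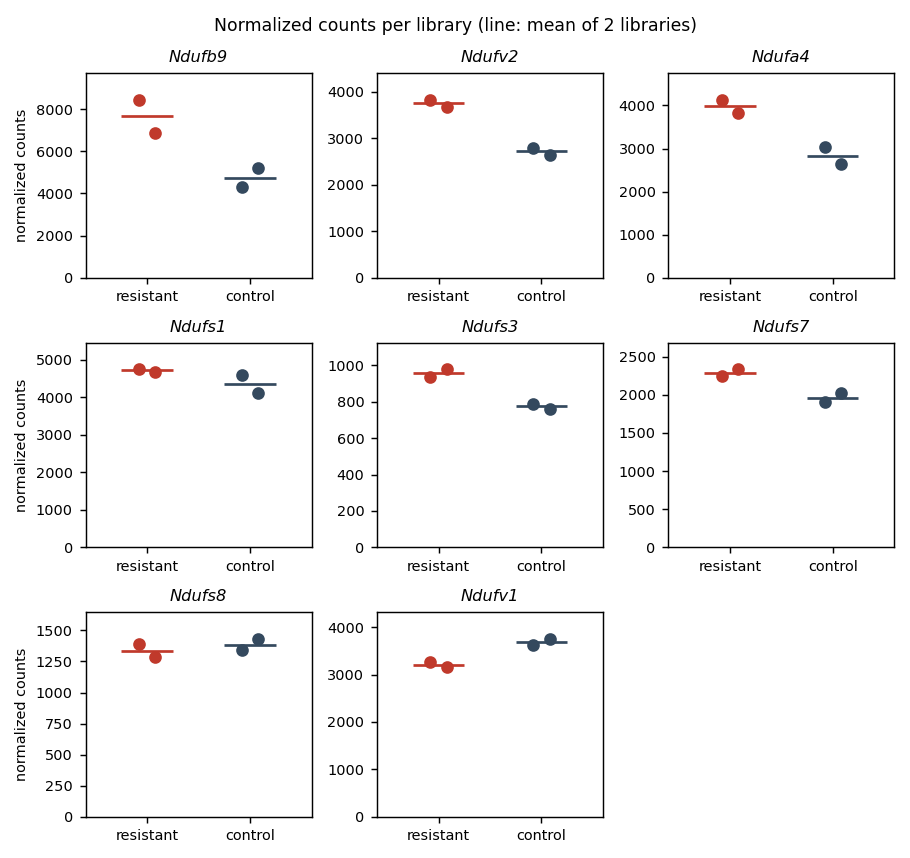
Normalized counts of Ndufb9, Ndufv2, Ndufa4, Ndufs1, Ndufs3, Ndufs7, Ndufs8 and Ndufv1 in each library, with a line at the mean of the 2 libraries of a group and axes that start at 0. Ndufb9, Ndufv2, Ndufa4, Ndufs1, Ndufs3 and Ndufs7 lie higher in both resistant libraries than in both controls, Ndufv1 lies lower, and the groups overlap for Ndufs8.

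Of the 29 accessory subunits 1 rose and none fell in limma, with a median log2 fold change of 0.12. 5 lay under an unadjusted p of 0.05, all higher, against 13.8% of all genes higher and 26.4% in either direction. Ndufb9 had the largest difference of all members. It is a subunit of the distal membrane arm with an LYR motif, a type of subunit that docks the acyl carrier protein Ndufab1. Ndufb9 (ENSMUSG00000022354.4, chromosome 15, 58933756 to 58939488, GRCm38) had 8432 and 6867 normalized counts in resistant libraries, against 4283 and 5198 in control libraries. The resistant libraries were higher and, in normalized counts, also further apart than the controls (SD 1107 and 647). On the log2 scale the fold change was 0.69 ± 0.14 (limma adjusted p = 0.0264). Of its exon length 19.5% is shared with Gm49356 on the same strand, which is listed at 0, so reads there are uncertain. The other LYR subunit, Ndufa6, also on chromosome 15, had 4346 and 3759 normalized counts in resistant libraries and 3066 and 3550 in control libraries, and did not pass (0.29 ± 0.13, limma adjusted p = 0.192). Ndufab1 itself had a log2 fold change of -0.03 ± 0.15, with overlapping groups.

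Among the other accessory subunits of the membrane arm, Ndufb10 came next (0.46 ± 0.13, limma adjusted p = 0.0726). It had 3578 and 2993 normalized counts in resistant libraries, against 2238 and 2539 in control libraries, which did not overlap. Ndufb10 belongs with Ndufa8, Ndufb7 and Ndufs5 to the subunits with twin CX9C motifs, which fold in the intermembrane space with the oxidoreductase Chchd4. Ndufa8 had 0.23 ± 0.11 and Ndufb7 0.13 ± 0.11 on the log2 scale, both with resistant libraries above controls. Ndufs5 had -0.15 ± 0.18, with resistant libraries below controls. Ndufb3, a small subunit of the distal membrane arm, had the lowest log2 fold change of the accessory subunits (-0.19 ± 0.14), with 932 and 857 normalized counts in resistant libraries and 941 and 1111 in control libraries. The X-linked subunits Ndufa1 (-0.10 ± 0.13) and Ndufb11 (-0.03 ± 0.11) did not pass either.

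Around the quinone module, Ndufa9, a subunit with a bound nucleotide cofactor, had 3062 and 3078 normalized counts in resistant libraries, against 2412 and 2502 in control libraries (0.32 ± 0.10, limma adjusted p = 0.100). Ndufa5, which sits on the quinone module, had 0.30 ± 0.13 and Ndufa11, a membrane subunit, 0.28 ± 0.12, each with resistant libraries above controls. No accessory subunit of the NADH-oxidising module passed. Ndufa12 had 0.22 ± 0.16, Ndufv3 0.16 ± 0.11 and Ndufa7 0.12 ± 0.12. Ndufs4, which holds that module in place, had 0.11 ± 0.12, Ndufs6, a zinc-binding subunit, 0.01 ± 0.16, and Ndufa2, a small thioredoxin-like subunit, 0.01 ± 0.11. Over the 9 core and accessory subunits of that module the median was 0.12 and 1 rose, and over the 5 of the quinone module the median was 0.22 and none passed. The remaining accessory subunits lay between -0.04 (Ndufb8) and 0.30 (Ndufb2). Reads of Ndufb5, Ndufb6, Ndufb11, Ndufa2 and Ndufa11, among others, are uncertain if strand was ignored. Mrpl47, with a mean of 1656 normalized counts, overlaps 616 exon bases of Ndufb5 on the opposite strand, and Smim27, with 95.4, overlaps 257 of Ndufb6. Likewise Rbm10 (mean 1292) overlaps 117 exon bases of Ndufb11, Tmco6 (564) overlaps 66 of Ndufa2, and Vmac (1001) overlaps 70 of Ndufa11. Tssk6 and B230220B15Rik overlap 375 exon bases of Ndufa13 and 1955 of Ndufaf2, and had means of only 3.25 and 1.24. The sources used here do not state whether reads were counted by strand.

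None of the 8 assembly factors passed in limma, while their median, 0.25, was the highest of the 3 classes. 2 were higher at an unadjusted p under 0.05, against 13.8% of all genes, and 0 passed in the voom fit. The largest difference was that of Ndufaf5, which in human cells hydroxylates an arginine of Ndufs7. It had 819 and 709 normalized counts in resistant libraries, against 492 and 618 in control libraries (0.47 ± 0.17, limma adjusted p = 0.130), which did not overlap. Ndufaf8, the protein that stabilises Ndufaf5, had 263 and 245 in resistant libraries and 260 and 247 in control libraries (-0.00 ± 0.18). Ndufaf1, part of the complex that assembles the membrane arm, had 773 and 627 in resistant libraries, against 536 and 528 in control libraries (0.39 ± 0.16). Ndufaf3 and Ndufaf4, which act together on the quinone module, had 0.25 ± 0.13 and 0.25 ± 0.19. Ndufaf4 had 0.06 without control replicate 1 or resistant replicate 1, and 0.45 without either of the others. Ndufaf7, a mitochondrial arginine methyltransferase, had 0.25 ± 0.13, Ndufaf6 had 0.24 ± 0.18, and Ndufaf2, a paralog of the subunit Ndufa12, had -0.17 ± 0.16. Leaving out resistant replicate 1 gave a median of 0.14 for the assembly factors.

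Ndufa4, first described with complex I and now counted as a subunit of cytochrome c oxidase, rose. It (ENSMUSG00000029632.7, chromosome 6, 11900292 to 11907497) had 4129 and 3825 normalized counts in resistant libraries, against 3034 and 2633 in control libraries. The log2 fold change was 0.49 ± 0.12 (limma adjusted p = 0.0407), without overlap of the groups. Its hypoxia-inducible paralog Ndufa4l2 was near the floor, with 5, 2, 3 and 6 reads in resistant replicates 1 and 2 and control replicates 1 and 2, and was not tested. The further paralog AA467197, known in human cells as C15orf48, had 359 and 365 normalized counts in resistant libraries, against 267 and 193 in control libraries, and did not pass (0.67 ± 0.21, adjusted p = 0.088 in limma).

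The 3 calls depended on which libraries were fitted, and over all genes calls were also fewer without either resistant replicate. Without resistant replicate 1 none of them passed, at log2 fold changes of 0.54 (Ndufb9), 0.43 (Ndufv2) and 0.44 (Ndufa4). Without resistant replicate 2, 1 member passed, Ndufb9 (0.84), while 5 members (11.1%, against 12.7% of all genes) rose without control replicate 1 and 8 (17.8%, against 14.6% of all genes) without control replicate 2. The added members were Ndufb2 and Ndufb10 without control replicate 1, and Ndufa6, Ndufa9, Ndufaf4, Ndufaf5 and Ndufb10 without control replicate 2. The call of Ndufa4 also ended when libraries were scaled to equal totals (0.45) and with voom (0.45). With equal replicate numbers as a block, Ndufv2 and Ndufa4 did not pass and Ndufb9 did. All 3 ended without the filter on low values and without a trend in the moderation. In those fits 0.470% and 1.87% of all genes rose, against 5.32% in the main fit.

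Levels per kilobase of exon placed Ndufb9 first among the 46 genes, with a mean of 6009 normalized counts per kilobase over the 4 libraries. Ndufa2 followed, with 5206 normalized counts per kilobase. The lowest subunits were Ndufb2 (70.2), Ndufab1 (86.5) and Ndufb4 (104), although the encoded proteins sit in one complex, and Ndufa4l2 had 3.69. The exon union holds retained introns. Divided by the principal transcript length, a choice made after the union lengths were seen, the order began with Ndufb9 (8800), Ndufa4 (6413) and Ndufa6 (6238), and ended with Ndufb4 (204), Ndufb2 (164) and Ndufa4l2 (4.33). Processed pseudogenes can share reads with such genes, so single levels are uncertain. The 4 processed pseudogenes with an Nduf symbol had at most 2.88 normalized counts in any library. Ndufb1-ps, annotated as a non-coding gene and so no member, had 1102 and 965 normalized counts in resistant libraries and 1079 and 1045 in control libraries, which overlapped.

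Promoter letters were read for the 40 of 46 members with an entry in the RefSeq promoter set used here. The windows ran from 250 bases before to 50 bases after the start (GRCm38.p6). Ndufa2, Ndufa4l2, Ndufaf6, Ndufb9 and Ndufs1 are among those without an entry. The factors NRF1, the ETS factor GABP and YY1 are known regulators of nuclear respiratory genes, and their motifs were searched on both strands. The NRF1 letters, GCGCA followed by any base and GCGC, occurred in 10 of 42 member windows, or 23.8%, against 4.60% of all 32851 windows. Those 10 windows belong to 9 members, since windows of different starts of a member count separately. The ETS letters CCGGAAG occurred in 6, or 14.3%, against 8.86% of all. The YY1 letters AAGATGGC occurred in 8, or 19.0%, against 2.75% of all. The MYC E-box CACGTG, which the hypoxia letters GCACGTG can overlap, occurred in 3 windows of 2 members, or 7.14%, against 7.15%. The hypoxia letters GTACGTG or GCACGTG and the estrogen-related receptor letters TCAAGGTCA occurred in 0 member windows, against 3.50% and 0.423% of all.

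The 100 bases before the start are shown for the 6 members with NRF1 letters there on either strand, in capitals, because this motif was the most frequent of those searched:
Ndufa5 (chr6:24527691-24527790, minus strand): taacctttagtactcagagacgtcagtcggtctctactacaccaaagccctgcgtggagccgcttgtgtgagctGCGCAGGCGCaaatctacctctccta
Ndufa8 (chr2:36049339-36049438, minus strand): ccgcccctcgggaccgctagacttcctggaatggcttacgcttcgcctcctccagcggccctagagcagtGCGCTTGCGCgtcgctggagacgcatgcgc
Ndufa11 (chr17:56717662-56717761, plus strand): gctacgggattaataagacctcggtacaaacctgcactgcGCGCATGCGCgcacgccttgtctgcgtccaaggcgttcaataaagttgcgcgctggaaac
Ndufb4 (chr16:37654369-37654468, minus strand): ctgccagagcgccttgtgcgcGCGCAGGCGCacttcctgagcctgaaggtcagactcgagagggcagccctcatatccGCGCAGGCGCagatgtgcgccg
Ndufs5 (chr4:123718187-123718286, minus strand): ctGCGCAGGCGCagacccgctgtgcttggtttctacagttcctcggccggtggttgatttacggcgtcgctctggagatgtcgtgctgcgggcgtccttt
Ndufs6 (chr13:73328483-73328582, minus strand): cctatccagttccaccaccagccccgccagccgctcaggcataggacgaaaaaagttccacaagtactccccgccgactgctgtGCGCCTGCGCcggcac
Ndufb4 held the letters in 2 places of this stretch. The 9 members with NRF1 letters had a median log2 fold change of 0.25, against 0.12 in the 31 without them, and none of the 9 passed in limma. Ndufaf5, Ndufa5 and Ndufa11 were higher at an unadjusted p under 0.05, as were 13.8% of all genes.

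All 8 YY1 matches lay on the gene's own strand, beginning between bases 11 and 39 after the start. They are shown as 30-base stretches with the match in capitals, because their position is shared:
Ndufa3 (chr7:3617384-3617413, plus strand): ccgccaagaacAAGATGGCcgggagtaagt
Ndufa9 (chr6:126849097-126849126, minus strand): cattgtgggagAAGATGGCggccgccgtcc
Ndufb8 (chr19:44555393-44555422, minus strand): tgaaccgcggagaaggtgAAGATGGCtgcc
Ndufc1 (chr3:51408915-51408944, minus strand): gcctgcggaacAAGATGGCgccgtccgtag
Ndufs4 (chr13:114388045-114388074, minus strand): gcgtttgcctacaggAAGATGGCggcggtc
Ndufs6 (chr13:73328433-73328462, minus strand): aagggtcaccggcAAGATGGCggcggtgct
Ndufs7 (chr10:80249462-80249491, plus strand): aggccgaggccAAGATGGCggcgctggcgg
Ndufaf8 (chr11:120098933-120098962, plus strand): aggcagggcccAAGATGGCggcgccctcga
In 7 of the 8, all but Ndufaf8, the ATG inside these letters was the annotated start codon, so the match coincides with the beginning of the reading frame. The median log2 fold change of these 8 members was 0.02, against 0.23 in the 32 without the letters.

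Of the 3 members that rose, Ndufv2 and Ndufa4 have a window, and it held none of the searched letters. Their last 100 bases before the start are printed for comparison with the stretches above:
Ndufv2 (chr17:66101560-66101659, minus strand): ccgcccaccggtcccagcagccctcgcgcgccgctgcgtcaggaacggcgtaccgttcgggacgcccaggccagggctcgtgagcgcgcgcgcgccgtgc
Ndufa4 (chr6:11907451-11907550, minus strand): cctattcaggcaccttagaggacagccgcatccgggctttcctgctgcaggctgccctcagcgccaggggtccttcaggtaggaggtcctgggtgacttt
ETS letters stood within 50 bases before the start in 4 members, whose 50-base stretches are shown with the letters in capitals:
Ndufs3 (chr2:90904722-90904771, minus strand): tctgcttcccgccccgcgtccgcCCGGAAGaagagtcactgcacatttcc
Ndufaf1 (chr2:119662835-119662884, minus strand): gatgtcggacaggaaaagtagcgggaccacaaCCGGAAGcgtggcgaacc
Ndufb7 (chr8:83566708-83566757, plus strand): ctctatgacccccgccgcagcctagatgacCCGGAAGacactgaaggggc
Ndufaf8 (chr11:120098884-120098933, plus strand): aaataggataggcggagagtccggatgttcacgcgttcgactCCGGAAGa
The 6 members with ETS letters had a median log2 fold change of 0.19 and the 34 without them had 0.19.

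**Figure D3:**
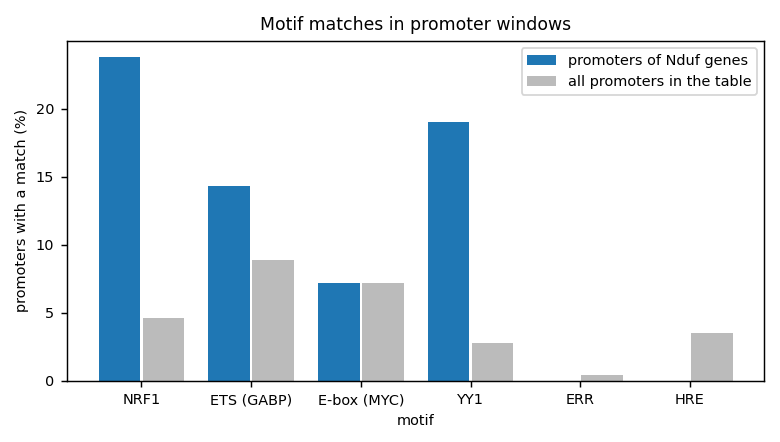
Share of promoter windows (percent, 250 bases before to 50 after the start) that hold each searched motif on either strand, for the 42 windows of Nduf genes and for all 32851 windows. NRF1 letters stand in 23.8% of Nduf windows against 4.60% of all, and YY1 letters in 19.0% against 2.75%.

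Regulators of these genes were read from the same fit. Of 12 regulators 2 rose and 1 fell in limma, against 5.32% and 4.73% of all genes. Ppargc1a, the coactivator PGC-1alpha that drives mitochondrial biogenesis, had 1009 and 1088 normalized counts in resistant libraries, against 193 and 341 in control libraries. The groups were far apart, at a log2 fold change of 2.03 ± 0.26 (limma adjusted p = 0.00405), and among the 15 alternatives tried the call ended only without the filter on low values. Its relative Ppargc1b had 355 and 383 in resistant libraries and 165 and 244 in control libraries, just short of the threshold (0.87 ± 0.23, adjusted p = 0.0518 in limma). Gabpa, the DNA-binding subunit of GABP, fell to 3845 and 3631 in resistant libraries, against 5378 and 5152 in control libraries (-0.49 ± 0.10, limma adjusted p = 0.0262). Myc rose (0.63 ± 0.14, limma adjusted p = 0.0299), while Nrf1 (-0.09 ± 0.11) and Yy1 (0.17 ± 0.12) did not pass. Neither Gabpa nor Myc passed without resistant replicate 1 (-0.54 and 0.65) or without resistant replicate 2 (-0.45 and 0.60), nor without the filter or the trend, and Gabpa did not pass with a replicate block.

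The complex I genes of the mitochondrial genome, which encode the proton-pumping core, were higher in resistant cells. Of the 5 that could be tested 4 rose, against 5.32% of all genes. The median over the 5 was 0.82 on the log2 scale, while mt-Nd3 and mt-Nd4l are listed at 0 in every library. mt-Nd5 had 37810 and 45455 normalized counts in resistant libraries, against 22541 and 18756 in control libraries (1.01 ± 0.14, limma adjusted p = 0.00694). mt-Nd1 (0.84 ± 0.17), mt-Nd2 (0.81 ± 0.16) and mt-Nd4 (0.82 ± 0.19) rose as well, and mt-Nd6, on the other strand, did not pass (0.72 ± 0.29, limma adjusted p = 0.169). Without resistant replicate 2 none of the 4 passed, without resistant replicate 1 only mt-Nd5 did, and none of the 4 passed without the filter or without the trend. The difference between mitochondrial and nuclear complex I genes was not tested.

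Among 13 assembly factors with other symbols, 1 rose (7.69%, against 5.32% of all genes) and none fell in limma, with a median of -0.05. Chchd4, the oxidoreductase that folds twin CX9C proteins, had 1497 and 1301 normalized counts in resistant libraries, against 829 and 984 in control libraries (0.63 ± 0.15, limma adjusted p = 0.0369). Chchd4 did not pass without resistant replicate 1 (0.53) or resistant replicate 2 (0.73), with equal totals (0.59), voom (0.59) or a replicate block, nor without the filter or the trend. Of the partners of Ndufaf1 in membrane-arm assembly, Ecsit had 0.43 ± 0.18 (0.21 without control replicate 1 and 0.66 without control replicate 2). Acad9 had 0.04 ± 0.11, Tmem126b -0.10 ± 0.14 and Timmdc1 -0.06 ± 0.11, and none of these partners passed with all libraries. Tmem186, the lowest of the 13 factors, had -0.25 ± 0.14, with both resistant libraries below both controls. Nuclear subunits of complexes II to V had 2 rises and no fall over 38 tested genes, or 5.26% higher, against 5.32% of all genes. Their median was 0.08. Resistant libraries lay above both controls for 19 of these subunits, or 50%, against 28.4% of all genes. They lay below both for 2, or 5.26%, against 28.3%. The 2 that rose, Uqcrc1 and Cox7a2, lost their calls without either resistant replicate, with equal totals, voom or a replicate block, and without the filter or the trend. Mitochondrial ribosomal protein genes had 2 rises (2.60%), 1 fall and a median of 0.04 over 77. The Nduf genes were not tested against either group.

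**Figure D4:**
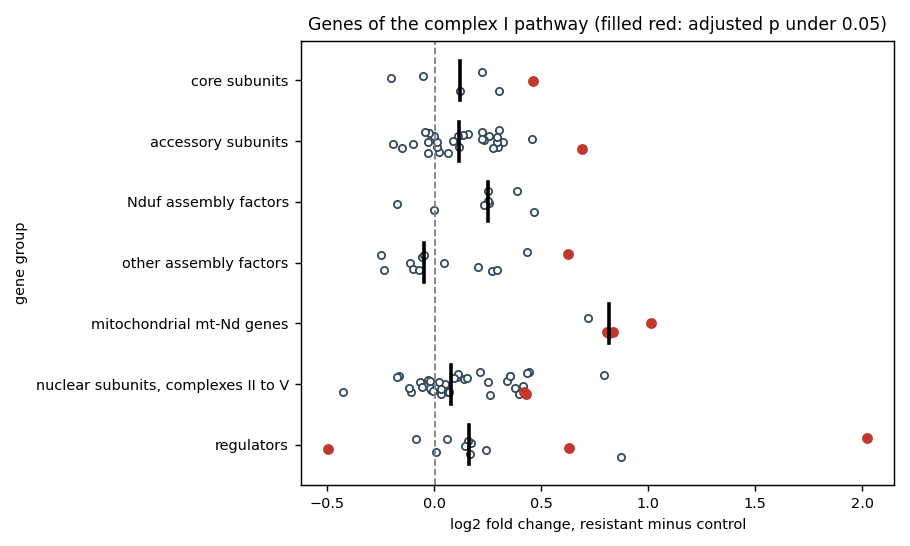
Log2 fold change (resistant minus control) of tested genes in 7 groups of the complex I pathway (1 core subunit is not drawn), with a black bar at the median of the whole group and a dashed line at the median of all genes. Filled red points are past an adjusted p of 0.05 in limma, and the mitochondrial mt-Nd genes, with a median of 0.82, lie furthest to the right as a group.

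The members are spread over the genome, and their differences were set beside those of tested genes starting within 2 Mb. Across the 45 tested members, the log2 fold change and the median of the neighbours had Pearson r = 0.65 and Spearman rho = 0.66. Over all 14215 tested genes with a neighbour r was 0.20 and rho 0.31. These sets were not matched for level or range, so their coefficients are not directly comparable. Every tested member averaged at least 198 normalized counts, while the filter for all genes was a mean of 10. Log2 fold changes ran from -0.32 to 0.69 in the members and from -6.66 to 8.80 in all genes tested. These values are descriptions, since all points share the same 4 libraries and some members share neighbours, as Ndufs8 and Ndufv1 on chromosome 19 do. Over all genes tested 5.32% rose and 4.73% fell. Ndufb9 had 26 neighbours, of which 7 rose and none fell, with a median of 0.25. Its adjacent gene Mtss1 rose by 0.64 and Tatdn1 by 0.79, against 0.69 for Ndufb9. Ndufb10 had 107 neighbours, of which 25 rose and 2 fell, with a median of 0.36. Ndufaf1 had 70, of which 12 rose and 1 fell, with a median of 0.35. At the other end, the neighbours of Ndufb8 (median -0.27), Ndufs8 (-0.24) and Ndufv1 (-0.23), all on chromosome 19, had medians below 0. The 16 neighbours of Ndufv2 and the 7 of Ndufa4 had medians of 0.06 and 0.07. None of them rose, and 2 neighbours of Ndufv2 fell, Mtcl1 and CT010496.1. The part of such regional differences in the values of single members was not tested.

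**Figure D5:**
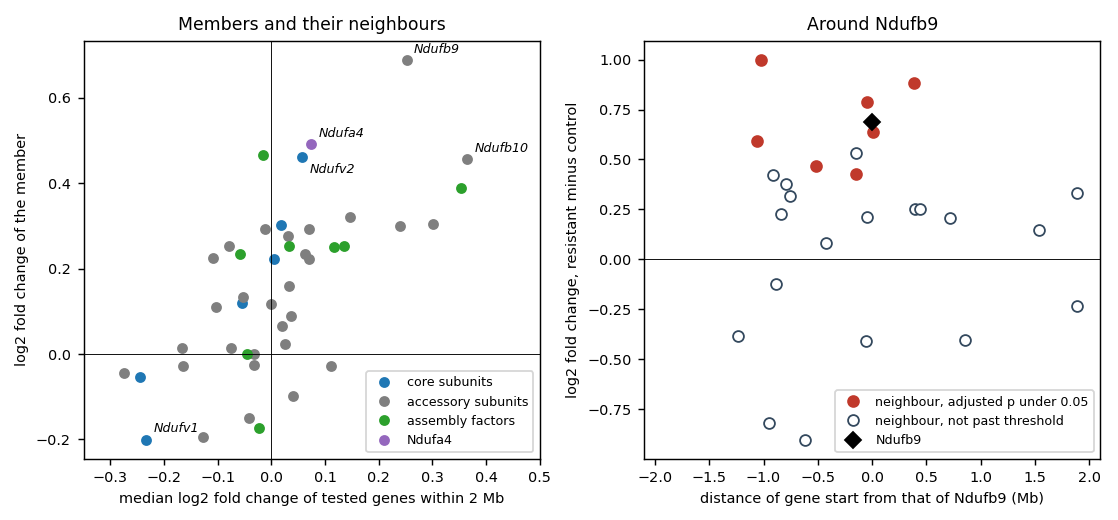
Left, log2 fold change of 44 tested members against the median log2 fold change of tested genes starting within 2 Mb. Right, log2 fold changes of the 26 tested genes around Ndufb9 by distance of their starts in Mb, where the 7 filled red points are past an adjusted p of 0.05 and Ndufb9 (black diamond, 0.69) lies among them.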

How the data were processed

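RNA of 2 resistant and 2 control samples was sequenced in bulk. The deposited values are on a log2 scale. The submitters' processing notes name STAR, DESeq2 and mm10, with no versions. The values themselves show log2(reads divided by a size factor, plus a pseudocount of 1): with the log undone, 100% of values came out as whole reads (tolerance 0.01). Identifiers were joined without version to GENCODE M21 (55144 of 55385). The deposited values were used as they are in limma 3.58.1 (R 4.3.3; lmFit, eBayes with a trend, no block), for genes averaging 10 or more normalized counts, with p-values adjusted over all 14238 genes by the Benjamini-Hochberg method. The fit was run on simulated counts, drawn with the same dispersion for every gene, as a check of the code. That check does not show how well differences as small as those of the members are called in these libraries. The members and lists were chosen with earlier results of these data known. Library values are given for called members, core subunits, the 3 largest and 3 smallest log2 fold changes and the Ndufa4 family; others were picked after their values were seen. The values of 1 member, a core subunit, are not reported here. Alternatives were other pseudocounts, filters, scalings and moderation, voom on whole reads, a replicate block and leaving out each library, where a lone library is assumed to vary like the other group.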

Additional observations from a re-analysis of the deposited data

How the results depend on the processing

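The number of Nduf genes that rose, 3, was kept with a pseudocount of 10, a mean of at least 100, equal upper quartiles, median centring and robust moderation, and was 2 with equal totals and with voom. It was 0 with no filter on low values, 0 with no trend in the moderation, and between 0 and 8 when 1 library was left out. Over the libraries left out, the number that fell was between 0 and 1. Of all genes, 758 rose and 674 fell, against 126 and 185 with no filter, 266 and 357 with no trend, and between 146 and 2074 and between 234 and 1993 with 1 library left out. The labels do not say that equal replicate numbers pair the libraries, and the deviations of resistant replicate 1 and control replicate 1 correlated at r = -0.36 across genes. With a replicate block 1 member rose. With the crossed pairing as a replicate block, added after seeing the data, 12 members rose and 1 fell, as did 2402 and 2182 of all genes. The median log2 fold change of the core subunits was 0.079 with equal totals and 0.079 with voom, and between 0.038 and 0.18 over the libraries left out, and that of the assembly factors between 0.14 and 0.35. The ratio of the highest to the lowest subunit level per kilobase was 85.6 on exon unions and 53.7 on principal transcripts, an alternative added after seeing the data. The log2 fold changes of some members near 0 changed sign. With equal totals and with voom these were Ndufa2 (-0.027 and -0.026), Ndufa3 (-0.018 and -0.017) and Ndufs6 (-0.026 and -0.023). With 1 library left out, Ndufa10 lay between -0.0046 and 0.13, Ndufa2 between -0.064 and 0.090, Ndufa3 between -0.024 and 0.068, Ndufab1 between -0.11 and 0.057, Ndufaf8 between -0.052 and 0.052, Ndufb11 between -0.091 and 0.040, Ndufc1 between -0.079 and 0.078, Ndufs6 between -0.15 and 0.18 and Ndufs8 between -0.11 and 0.0022. For all of these the cause was not tested.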
